A study of Sus scrofa with 6 samples.

Results

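LIN28A, LIN28B, IGF2BP1, IGF2BP2, IGF2BP3, HMGA1, HMGA2, TRIM71, DICER1 and ARID3B were followed from porcine embryonic fibroblasts (PEFs) to the porcine induced pluripotent stem cells (piPSCs) made from them. They were chosen by name, as genes of the LIN28 and let-7 axis and of the oncofetal RNA-binding group, among 18007 genes in the table. Of the 10 genes, 7 were found under their symbol, IGF2BP1 by its gene identifier and HMGA2 by its position, and LIN28A, which had no row under any of these, was not analysed here. Of the 9 genes with a row, 8 had a mean FPKM (fragments, scaled by gene length and library total) of at least 0.5 and were tested, while TRIM71 lay below that level.

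The fibroblast lines PEF5, PEF7 and PEF8 came from the ear tips of day 90 embryos of 1 Meishan sow mated to a Large White boar. Each was infected with lentiviruses that carry Oct4, Sox2, Klf4 and c-Myc under a doxycycline-dependent promoter and the transactivator that drives it, and picked colonies grown on mouse feeder cells gave piPSC5, piPSC7 and piPSC8. Poly-A RNA of each line was sequenced as 1 library, so the 3 libraries of a group are 3 lines and no line has a replicate. LIN28 was not among the factors that were introduced.

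The libraries held between 11010629 and 17836510 fragments. The summed FPKM of 10 fibroblast markers ran from 4491 to 6455 in PEFs and from 131 to 223 in piPSCs, and all 10 markers fell. Of 10 pluripotency markers 8 had a row, and DPPA4 and TDGF1, which had none, were not measured. A mean FPKM of at least 0.5 was reached by 2, while POU5F1, NANOG, SALL4 and ESRRB lay at 0.155 FPKM or lower in every piPSC library. KLF4, one of the introduced factors and also expressed by fibroblasts, was at 17.4 to 41.6 FPKM in PEFs and 4.45 to 12.9 in piPSCs, and it fell by 1.71 on the log2(FPKM + 1) scale (adjusted p = 0.0177). SOX2 was at 3.01 FPKM in piPSC5, 2.49 in piPSC7 and 0.129 in piPSC8, with no more than 0.0208 in any PEF library. The values of POU5F1, KLF4 and SOX2 are those of the pig genes. Whether they include fragments of the introduced copies was not tested. The study reports Oct4 protein in its piPSCs by immunofluorescence. The 8 proliferation genes listed all rose in piPSCs (7 under median ratio rescaling and 6 under rescaling to an equal sum, where CDK1 and then PCNA no longer passed), and their summed FPKM ran from 412 to 438 in piPSCs but was 163 in PEF5, 41.2 in PEF7 and 54.2 in PEF8. The lines are described as male by the study, but DDX3Y of the Y chromosome had 3439 fragments in PEF8, 4207 in piPSC8 and 0 in the other 4 libraries, so lines 5 and 7 went against that description.

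LIN28A and LIN28B are RNA-binding proteins of embryonic cells that bind precursors of the let-7 microRNAs and block their maturation, while DICER1 is the enzyme that cuts such precursors into mature microRNAs. Mature let-7 in turn represses messages that carry matches to its seed in their 3′ UTRs, among them those of LIN28B, HMGA2, TRIM71, ARID3B and the IGF2BP family in other mammals. IGF2BP proteins bind and stabilise messages, and HMGA proteins bind AT-rich DNA and shape chromatin. IGF2BP1, IGF2BP3 and the HMGA proteins are high in the fetus and in many tumours and low in most adult tissues.

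The mature let-7 sequences are shown because the seed they share sets which messages they can pair with. They were read from the pig genome Sscrofa11.1 at the positions of the RefSeq annotation, with bases 2 to 8, the seed, in capitals. The annotation held 10 genes of the family with 8 distinct mature sequences, all with the seed GAGGUAG.
let-7a: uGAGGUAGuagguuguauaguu
let-7c: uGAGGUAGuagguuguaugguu
let-7d: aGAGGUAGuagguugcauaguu
let-7e: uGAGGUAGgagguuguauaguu
let-7f: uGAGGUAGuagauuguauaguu
let-7g: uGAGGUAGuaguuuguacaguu
let-7i: uGAGGUAGuaguuugugcu
miR-98: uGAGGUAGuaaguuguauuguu
Let-7i is annotated as 19 bases where the others have 22.

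The longest RefSeq 3′ UTR of each gene was searched on its own strand for CTACCTC, the complement of the seed. Of the 9 genes with an annotated 3′ UTR, 8 held at least 1 match, against 8.45% of 18167 genes with a 3′ UTR. The genes were chosen as genes of the let-7 axis, several of them known targets, so a high share was set by that choice. The 8.45% is also not matched for length, as the median UTR had 942 bases. Among UTRs of like length the share with a match ran from 0.404% for HMGA2 to 24.1% for TRIM71. The 28-base windows below end 1 base after the match, which is in capitals.
LIN28B, chr1:71295240-71295267, plus strand: tctctccctggttgggacgtCTACCTCa
IGF2BP1, chr12:25244587-25244614, plus strand: aatgctgtgcgcgaagtaaaCTACCTCa
IGF2BP2, chr13:123486097-123486124, minus strand: agaaaaacacacaaaaaaagCTACCTCa
IGF2BP3, chr9:92106465-92106492, minus strand: aaacgtgcatttttactcaaCTACCTCa
HMGA1, chr7:30329012-30329039, plus strand: atctttcctctgttcacaaaCTACCTCt
HMGA2, chr5:30329528-30329555, plus strand: ggggcgccaacattcaatttCTACCTCa
TRIM71, first match, chr13:18830691-18830718, plus strand: agtacaacattgcttacgtcCTACCTCa
ARID3B, chr7:58932463-58932490, minus strand: gtttatatttcaataaacctCTACCTCt
TRIM71 held 6 matches in 5225 bases, the most of any gene searched, and no other gene held as many. The 0.0887% of 1127 UTRs of like length (at least 0.8 times as long and at most as long divided by 0.8) with as many is thus TRIM71 itself. Each share among UTRs of like length counts the gene's own UTR. HMGA2 held 1 match in an annotated UTR of only 108 bases, where 0.404% of 742 UTRs of like length hold one. That UTR ends at 30329635, but the span of HMGA2 in the expression table runs on to 30332703. The annotated UTR may thus be cut short, and this count and share depend on the annotation. LIN28B held 1 match in 915 bases, where 6.27% of UTRs of like length do. The same limit holds for LIN28B, whose UTR ends at 71296131 and whose span runs on to 71299820. DICER1 held none in 4332 bases, where 21.6% of UTRs of like length hold one, and LIN28A had no annotated 3′ UTR. A match describes these letters only and does not show a bound site.

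LIN28B (ENSSSCG00000037612, chromosome 1 from 71174509 to 71299820, plus strand) was nearly silent in fibroblasts and present in every piPSC line. It was at 0.0104 FPKM in PEF5, 0.0111 in PEF7 and 0.0367 in PEF8, from 1, 1 and 3 fragments. It was at 2.51 FPKM in piPSC5, 0.281 in piPSC7 and 8.90 in piPSC8, from 204, 18 and 529 fragments. The groups did not overlap, but the piPSC lines were far apart, with piPSC8 highest and piPSC7 lowest. In bulk RNA, fewer cells with LIN28B and less LIN28B RNA per cell cannot be told apart. Set against its own fibroblast line and corrected for library depth, LIN28B was 242-fold higher in line 5 (95% exact binomial interval 42.9 to 9596), 25.3-fold in line 7 (3.99 to 1054) and 243-fold in line 8 (82.6 to 1180). These intervals cover the counting error alone and are wide because 1 to 3 fibroblast fragments stand below each ratio. The group difference of log2(FPKM + 1), a scale that understates changes of low genes, was 1.80 (SE 0.69, n = 3 lines each) and did not pass the test (limma, adjusted p = 0.0667, range over 14 alternatives 0.00953 to 0.142). It passed with a pseudocount of 0.1 (difference 4.13, adjusted p = 0.0242), with voom on recovered fragments (6.09, 0.0450) and without piPSC7 (2.53, 0.00953). The study reports LIN28B as significantly upregulated in its piPSCs, at a relatively high mRNA level that fell once doxycycline was removed.

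**Figure D1:**
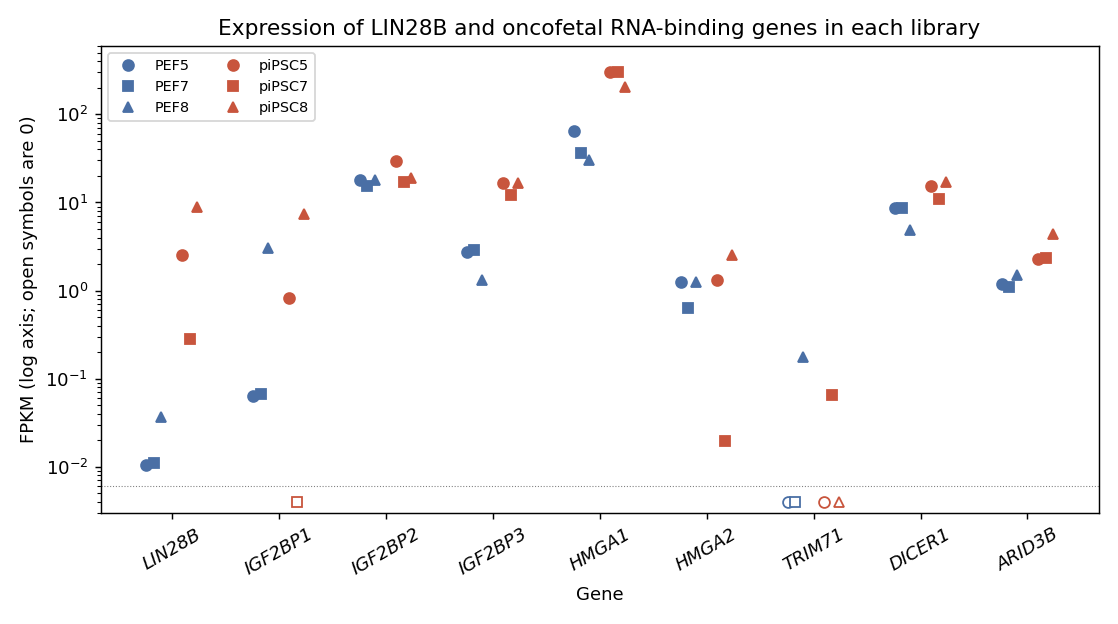
FPKM of the 9 genes with a row on a log axis, 1 symbol per library, with PEFs in blue, piPSCs in red and the symbol shape giving the line (values of 0 are open symbols under the dotted line). LIN28B, IGF2BP3, HMGA1, DICER1 and ARID3B have every piPSC symbol above every PEF symbol, and LIN28B, IGF2BP1 and HMGA2 spread widely among the piPSC lines.

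The let-7 precursors themselves are not well measured by poly-A libraries, and mature let-7 is not measured by them. The table lists 4 let-7 hairpins. That of let-7d, on chromosome 3 from 43468501 to 43468596, had 15, 13 and 4 fragments in PEF5, PEF7 and PEF8 and 29, 9 and 16 in piPSC5, piPSC7 and piPSC8, with overlapping groups. The hairpins of let-7a-2, let-7f-2 and let-7i had at most 4 fragments in any library, so no difference was detectable at this depth. The let-7d hairpin is shown, read from Sscrofa11.1 on the plus strand, since LIN28 proteins are known to recognise GGAG in the loop of such precursors, in capitals here.
let-7d hairpin: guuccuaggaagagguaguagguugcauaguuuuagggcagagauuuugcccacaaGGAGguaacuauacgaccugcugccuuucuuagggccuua
GGAG occurred once in its 96 bases, from base 57, and the listed hairpins of let-7a-2, let-7f-2 and let-7i held it as well.

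Across the 8 tested genes, 4 rose in piPSCs, with adjusted p under 0.05 (IGF2BP3, HMGA1, DICER1 and ARID3B), as did 30.3% of all 12428 tested genes. With a change of at least 2-fold in FPKM + 1 as well, 2 were called higher (IGF2BP3 and HMGA1), against 20.2% of all tested genes. None was called lower by limma, against 16.7% of all tested genes (21.5% at an adjusted p under 0.05 alone), and the number lower was also 0 at an unadjusted p under 0.05 and 0 called by voom. In 5 of the 8 genes, every piPSC library lay above every PEF library, as for 37.3% of all tested genes, and in 0 of 8 every piPSC library lay below, as for 26.8%. The median difference over the 8 genes was 0.85, beside 0.20 over all tested genes. The 8 genes passed the filter on the mean of all 6 libraries, and TRIM71, which did not, is described by its fragments only. LIN28B, with a mean of 0.0194 FPKM in PEFs and 3.90 in piPSCs, passed only through the piPSCs. Its place among the 5 and its part in the median were thus partly set by the filter. The shift of all genes depended on the scaling, with a median of -0.01 when libraries were rescaled by the median ratio and -0.06 when each was rescaled to an equal sum.

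**Figure D2:**
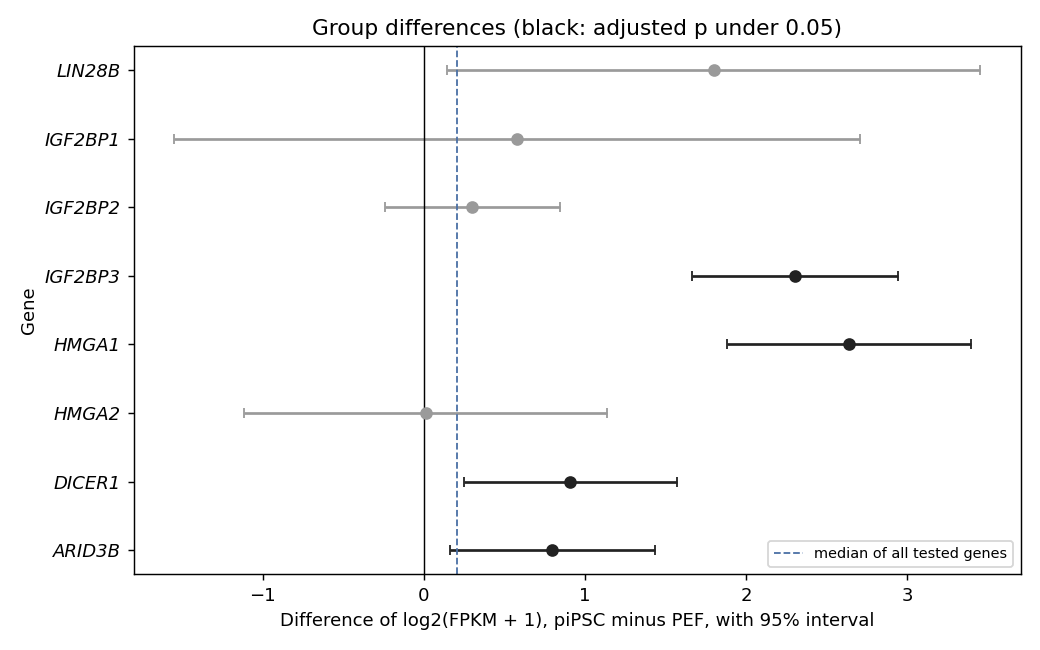
Difference of log2(FPKM + 1) between piPSCs and PEFs with its 95% interval from limma for the 8 tested genes, in black where the adjusted p was under 0.05 and in grey otherwise, with the median of all tested genes (0.20) as a dashed line. IGF2BP3 (2.30) and HMGA1 (2.64) lie far to the right of 0, and the intervals of IGF2BP1 and HMGA2 are wide and include 0.

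The 3 IGF2BP genes, which encode related binding proteins of messenger RNA that also read m6A, differed in their patterns. IGF2BP3 (ENSSSCG00000036695, chromosome 9 from 92104787 to 92272014, minus strand) was at 2.71, 2.92 and 1.32 FPKM in PEF5, PEF7 and PEF8 and at 16.5, 12.0 and 16.8 in piPSC5, piPSC7 and piPSC8. The piPSC lines were close to each other and all above the fibroblasts. IGF2BP3 rose by 2.30 on the log2(FPKM + 1) scale (SE 0.27, adjusted p = 0.00102), and passed the test in 14 of 14 alternatives, with adjusted p between 0.000903 and 0.00688. Line by line it was 6.07-fold, 4.12-fold and 12.8-fold higher in lines 5, 7 and 8.

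IGF2BP2 (ENSSSCG00000011795, chromosome 13 from 123485623 to 123650043, minus strand) had the highest FPKM of the 3 in every library. It was at 17.8, 15.4 and 17.8 FPKM in PEF5, PEF7 and PEF8 and at 29.3, 17.0 and 18.9 in piPSC5, piPSC7 and piPSC8. The groups overlapped, with piPSC7 among the fibroblasts and piPSC5 and piPSC8 above them. The difference of log2(FPKM + 1) was 0.30 (95% interval -0.24 to 0.84, adjusted p = 0.296), and its sign turned to -0.01 when each library was rescaled to an equal sum.

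IGF2BP1 (ENSSSCG00000023128, chromosome 12 from 25197257 to 25242918, plus strand) was highest in line 8 in both groups. It was at 0.0633 FPKM in PEF5, 0.0676 in PEF7 and 3.06 in PEF8, from 2, 2 and 82 fragments. It was at 0.825 FPKM in piPSC5, 0 in piPSC7 and 7.39 in piPSC8, from 22, 0 and 144 fragments. The groups overlapped, and the fibroblasts of line 8 lay above piPSC5 and piPSC7. In line 8 the ratio of piPSC to PEF was 2.42 (1.83 to 3.21), in line 5 it was 13.0 (3.21 to 114), and in line 7 both libraries were at or under 3 fragments and no ratio is given. The difference of log2(FPKM + 1) was 0.58 (95% interval -1.55 to 2.71, adjusted p = 0.608), and it turned to -0.30 without piPSC8. With the replicate block by line its SE was 0.33 instead of 0.89, and it still did not pass (limma, adjusted p = 0.203). The RefSeq 3′ UTR of IGF2BP1 lies outside the span that the table gives to the gene, as do those of TRIM71 and ARID3B, so fragments in those UTRs were not part of these values.

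The HMGA genes, which encode AT-hook proteins of chromatin and are classed here with the oncofetal genes, parted from each other. HMGA1 (ENSSSCG00000032242, chromosome 7 from 30320414 to 30329408, plus strand) was the most abundant gene of the 9 per length in every library. It was at 65.5, 36.5 and 30.3 FPKM in PEF5, PEF7 and PEF8 and at 301, 303 and 203 in piPSC5, piPSC7 and piPSC8. All piPSC lines lay well above all fibroblasts, and PEF5 was highest among the fibroblasts. PEF5 also had the highest proliferation sum of the fibroblasts, but PEF7 had a lower sum than PEF8 and more HMGA1. Among the piPSCs, piPSC7 had the lowest sum (412), with HMGA1 (303) nearly equal to that of piPSC5 (301). The part of proliferation in the level of HMGA1 was not tested. HMGA1 rose by 2.64 on the log2(FPKM + 1) scale (SE 0.32, adjusted p = 0.00113) and passed in 14 of 14 alternatives, with adjusted p between 0.00106 and 0.00714. The ratios were 4.60 in line 5, 8.30 in line 7 and 6.72 in line 8.

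HMGA2 (ENSSSCG00000034610, chromosome 5 from 30188571 to 30332703, plus strand), a classic target of let-7, went opposite ways in the lines. It was at 1.24 FPKM in PEF5, 0.632 in PEF7 and 1.24 in PEF8, from 94, 45 and 80 fragments. It was at 1.31 FPKM in piPSC5, 0.0197 in piPSC7 and 2.56 in piPSC8, from 84, 1 and 120 fragments. The highest and the lowest of all 6 libraries were thus both piPSCs. The ratio of piPSC to PEF was 1.06 in line 5 (0.780 to 1.44), 0.0312 in line 7 (0.000774 to 0.183) and 2.06 in line 8 (1.54 to 2.77), with intervals for counting error only. The group difference of log2(FPKM + 1) was 0.01 (95% interval -1.11 to 1.14, adjusted p = 0.985), and its sign depended on the scaling.

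**Figure D3:**
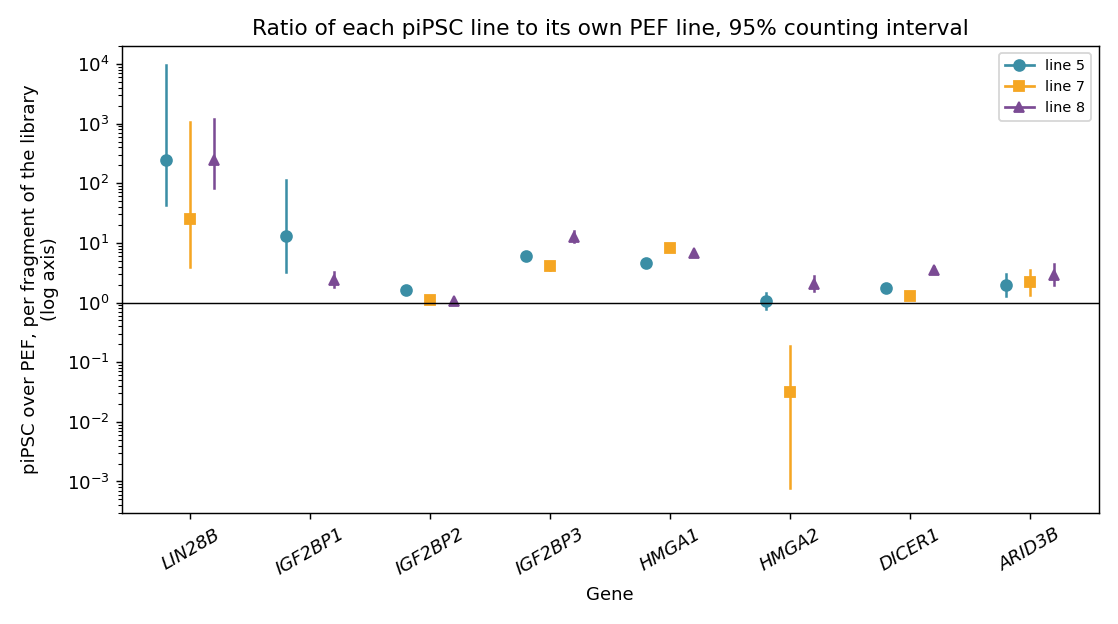
Ratio of each piPSC line to the PEF line it was made from, per fragment of the library, on a log axis for the 8 tested genes, with bars for the exact 95% counting interval and the line at 1 for no difference (IGF2BP1 of line 7, with at most 3 fragments in both libraries, is not drawn). LIN28B lies above 1 in all 3 lines, and HMGA2 lies above 1 in line 8 (2.06) and far under 1 in line 7 (0.0312).

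TRIM71 (ENSSSCG00000036996, chromosome 13 from 18762149 to 18830563, plus strand), an embryonic RNA-binding ubiquitin ligase of the TRIM-NHL family, was close to silent everywhere. It had 0, 0 and 7 fragments in PEF5, PEF7 and PEF8 and 0, 2 and 0 in piPSC5, piPSC7 and piPSC8. A count of 0 allows up to 3 fragments, so a difference between the groups was not detectable at this depth. Its relatives TRIM2, TRIM3 and TRIM32 were all measured, and 1 of them, TRIM3, fell, by 1.28 (adjusted p = 0.0453, and 0.0554 with the replicate block by line).

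DICER1 (ENSSSCG00000028225, chromosome 7 from 116361678 to 116436396, minus strand) was at 8.74, 8.65 and 4.83 FPKM in PEF5, PEF7 and PEF8 and at 15.6, 10.98 and 17.2 in piPSC5, piPSC7 and piPSC8. The groups did not overlap, although piPSC7 came close to the highest fibroblasts. DICER1 rose by 0.91 on the log2(FPKM + 1) scale (SE 0.28, adjusted p = 0.0318), under a 2-fold change, and by 1.78-fold, 1.27-fold and 3.56-fold in lines 5, 7 and 8. It no longer passed in 8 of 14 alternatives, among them the replicate block by line (adjusted p = 0.0650) and both rescalings, and the adjusted p ranged from 0.0278 to 0.117.

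ARID3B (ENSSSCG00000001905, chromosome 7 from 58934780 to 58995973, minus strand), a DNA-binding protein with an AT-rich interaction domain, was at 1.18, 1.08 and 1.51 FPKM in PEF5, PEF7 and PEF8 and at 2.29, 2.36 and 4.41 in piPSC5, piPSC7 and piPSC8. All piPSC lines lay above all fibroblasts, with piPSC8 highest, from 31 to 83 fragments a library. ARID3B rose by 0.80 on the log2(FPKM + 1) scale (SE 0.27, adjusted p = 0.0431), which understates changes of low genes. Per fragment of the library it was 1.94-fold, 2.18-fold and 2.93-fold higher in lines 5, 7 and 8. It no longer passed in 10 of 14 alternatives, with adjusted p from 0.0340 to 0.157. Its relative ARID3A, at 0.20 (adjusted p = 0.671), did not pass.

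The order of the piPSC lines was alike in several of these genes, a pattern picked out after the values were seen. piPSC7 was the lowest piPSC library in 6 of the 8 tested genes (LIN28B, the 3 IGF2BP genes, HMGA2 and DICER1), as it was in 37.1% of all tested genes. piPSC8 was the highest in 6 of 8 (LIN28B, IGF2BP1, IGF2BP3, HMGA2, DICER1 and ARID3B), against 30.1% of all tested genes. HMGA1 differed, with piPSC8 lowest (203 FPKM) and piPSC7 (303) and piPSC5 (301) nearly equal. Of 5 skeletal muscle markers 3 had a row. DES, desmin, was at 14.2 FPKM in piPSC7, 0.165 in piPSC5 and 2.52 in piPSC8, with at most 0.416 in PEFs, while MYOD1 and MYF5 were at 0 in every piPSC library. Single markers of other lists were also highest in piPSC7 among the piPSCs, with KRT14 of keratinocytes at 3.04 FPKM (0.164 in piPSC5 and 0.225 in piPSC8), MATN3 of chondrocytes at 4.20 (0.50 and 0.311) and PAX6 of neural progenitors at 5.00 (0.802 and 1.05), though PAX6 reached 5.20 in PEF7. KRT5 was at 0.806 in piPSC7 and at 0.0252 and 0 in piPSC5 and piPSC8. Other markers of the same lists did not share this order. FABP7 of neural progenitors was lowest in piPSC7 (0.231 FPKM, against 2.07 in piPSC5 and 2.455 in piPSC8). NES was at 0.900 in piPSC7, 4.25 in piPSC5 and 0.368 in piPSC8. SOX9, COMP and TP63 were at 0 in piPSC7, and ACAN and COL2A1 were at 0.106 or lower there. KRT10 was at 5.09, 5.24 and 4.52 in piPSC5, piPSC7 and piPSC8. The part of cells with these markers in the levels above was not tested. SOX2 had another order, with piPSC8 lowest.

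The genes most like LIN28B across the 6 libraries, by the root mean square difference of mean-centred log2(FPKM + 1), were LEPR (0.261), CNTN1 (0.265) and PGAP1 (0.270). LEPR, the leptin receptor, was at 4.28, 0.163 and 7.50 FPKM in piPSC5, piPSC7 and piPSC8 and at 0.0136 or lower in PEFs. For HMGA2 they included NCKAP1 (0.167) and OAZ3 (0.169), each with its lowest value in piPSC7 and its highest in piPSC8.

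The pathway lists are read against all tested genes, of which 30.3% rose and 21.5% fell at an adjusted p under 0.05 without rescaling. Such shares are not given for the rescalings, so list counts under them have no matched share beside them. Genes called at 2-fold moved from 2505 higher and 2070 lower to 1879 and 2511 under the median ratio. Under the equal sum they were 1986 and 2815. Of 10 tested genes that process microRNAs, 7 rose, 0 fell and 3 did not pass, with a median difference of 0.97, and 5 rose under either rescaling. RAN, the GTPase of nuclear export, rose by 1.77 (adjusted p = 0.00108), XPO5, which exports precursors from the nucleus, by 1.73 (0.000924), and DROSHA, the nuclear cutter of primary transcripts, by 1.64 (0.00183). XPO5 went from 22.2 ± 3.06 FPKM in PEFs to 76.6 ± 14.7 in piPSCs (SD, n = 3), and DROSHA from 5.76 ± 1.92 to 19.5 ± 1.29.

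Of 6 tested genes that tail or degrade let-7 precursors or act beside them, 4 rose and 1 fell, with a median of 0.87. Under median ratio rescaling 3 rose and under the equal sum 2 did, TUT4 and then DIS3L2 no longer passing, and with the replicate block none fell. KHSRP, which promotes let-7 maturation, rose by 1.49 (adjusted p = 0.00144), and TENT2, a poly(A) polymerase, rose by 1.06 (0.00201). TRIM25, a ubiquitin ligase that binds RNA and acts with LIN28A on let-7 precursors, fell by 2.00 (0.0199, and 0.0554 with the replicate block). TUT4, the uridylating partner of LIN28A, rose by 0.80 (0.0303), whereas TUT7, its relative, was at -0.22 and did not pass.

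Without rescaling, known let-7 targets other than the genes above were found higher and lower in shares near those of all tested genes. Of 17 tested, 5 rose, 3 fell and 9 did not pass, with a median of -0.17, and under the rescalings 2 rose and 5 or 6 fell. With the replicate block 3 rose and 3 fell. THBS1, a matrix glycoprotein abundant in fibroblasts, fell by 6.98 (adjusted p = 0.000101), from 766 ± 279 to 4.86 ± 1.01 FPKM. CCND1, cyclin D1, fell by 1.37 (0.0431), and NR6A1, an embryonic orphan nuclear receptor, rose by 1.37 (0.00319). THBS1 fell beside the fibroblast markers, whose part in its fall was not tested.

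Of 5 tested messages known to be bound by IGF2BP proteins, 2 fell and none rose, with a median of -0.22. CD44, a hyaluronan receptor, fell by 5.37 (adjusted p = 6.7e-05) and ACTB, cytoplasmic actin, by 1.55 (0.00138), while IGF2 was at 0.72 (0.228). CD44 and ACTB fell beside the fibroblast markers, whose median difference was -5.59, and the part of the fibroblast state in their fall was not tested. Among 15 tested writers, erasers and readers of m6A, the mark that IGF2BP proteins read, 9 rose and none fell, with a median of 0.79. ZC3H13 of the writer complex rose by 1.66 (0.00318), the reader HNRNPA2B1 by 1.14 (0.00353) and METTL14 of the writer complex by 1.08 (0.00437). Under both rescalings 6 of the 15 rose and WTAP fell.

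Other chromatin proteins of the high mobility group were also counted. Of 8 tested HMGB and HMGN genes, 6 rose and none fell, with a median of 1.58, and the count was 6 under both rescalings. HMGB2 rose by 3.09 (adjusted p = 0.00373), from 32.6 ± 28.4 to 229 ± 18.1 FPKM, with PEF5, which had the highest proliferation sum of the fibroblasts, at 65.4 and PEF7 and PEF8 at 17.2 and 15.2. The part of proliferation was not tested. HMGB3 rose by 2.00 (0.00276) and HMGB1 by 1.63 (0.00163). Genes that share the cold shock domain of LIN28 moved in both directions. YBX1, an abundant message-binding protein, rose by 1.97 (0.00123), YBX3 by 1.55 (0.00258), and CARHSP1 fell by 2.83 (0.00145). Of the 2 listed messages known to be repressed by TRIM71, CDKN1A, the inhibitor p21, fell by 1.87 (0.0172), and EGR1 was at -0.11 (0.939).

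**Figure D4:**
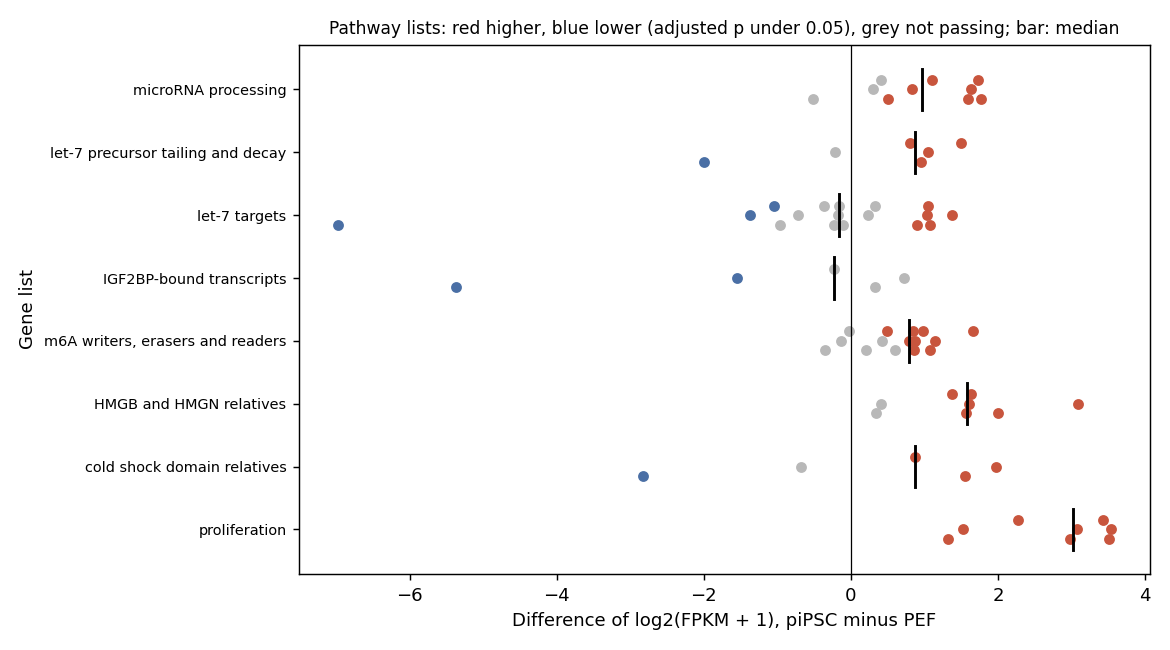
Difference of log2(FPKM + 1) between piPSCs and PEFs for each tested gene of the lists with at least 5 tested genes, in red where higher and blue where lower at an adjusted p under 0.05, grey otherwise, with the median as a black bar. The 8 proliferation genes lie to the right (median 3.03), and the 17 let-7 targets lie on both sides of 0 (median -0.17).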

How the data were processed

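FPKM values per gene were made and deposited by the authors, whose submission notes name Bowtie2 2.2.3, HISAT2 2.1.0, HTSeq 0.6.0 and the build Sscrofa11.1. The library kit does not mark strand, and the annotation release is not given in the sources used here. Fragments were recovered for 18007 genes, as the smallest numbers that put every value of a gene within 0.02 of a whole fragment. Depth is given with the report, and intervals and limits cover counting error only.

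PEFs and piPSCs were compared with limma 3.58.1 (R 4.3.3, eBayes with trend) on log2(FPKM + 1), unpaired, over the 12428 genes whose mean FPKM reached 0.5, two-sided, with Benjamini-Hochberg adjustment over all of them. Calls needed an adjusted p under 0.05 and at least 2-fold. The fit was tested on simulated data. The p-values weigh the group difference against the spread between lines, moderated over all tested genes, without the pairing by line. Among PEFs that spread is between embryos of the same sow. Among piPSCs it also holds differences between the infections and the picked colonies, which cannot be told apart from those between embryos. An exact permutation test of 3 against 3 cannot go below 0.1, so none was run. Line ratios with exact binomial intervals and sequence searches used Python 3.11.15, scipy 1.17.1 and pysam 0.24.0. Alternatives were a replicate block by line, a pseudocount of 0.1, no filter or a mean FPKM of at least 1, rescaling to the median ratio or to a sum of 1000000, no trend, voom on the fragments and each library left out.

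All members were named, with up to 3 called genes of largest difference per list. TUT4, TUT7, ARID3A, IGF2, WTAP and EGR1 are named outside that rule, chosen with their values known. Members and lists were chosen with earlier results of these data known. The AGO3 row also spans AGO1 and AGO4. Fragments of mouse feeder cells cannot be told apart from those of piPSCs. Libraries of the same number share a cell line, which pairs them. After subtraction of group means, these pairs correlated at 0.0921, 0.0946 and 0.0800, against -0.121 to 0.0553 for other pairs. Protein sequences were not used here, and some genes of the lists are not reported here.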

Additional observations from a re-analysis of the deposited data

Results flagged for a closer look

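HMGA2 was singled out because its ratio of piPSC to PEF pointed opposite ways in lines that each have 1 library a group. On the log2 scale of FPKM + 1 the ratio was 0.05 in line 5, -0.68 in line 7 and 0.67 in line 8. Line 7 thus differed from line 5 by -0.72 and line 8 from line 7 by 1.35. The difference between lines was not tested, as no line has a replicate.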

How the results depend on the processing

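Of 112 values of the 8 tested genes under the 14 alternatives, 82 kept their direction and their side of the threshold, 18 (all of DICER1 and ARID3B) no longer had an adjusted p under 0.05, 3 (all of LIN28B) came under it and 9 changed sign. The sign of HMGA2 turned with a pseudocount of 0.1 (-0.52), median ratio rescaling (-0.10), rescaling to an equal sum (-0.34) and voom (-1.36), and ranged from -0.39 to 0.51 with single libraries left out, where it was negative without PEF7 (-0.14), piPSC5 (-0.08) or piPSC8 (-0.39). IGF2BP2 turned to -0.01 (-0.007) under the equal sum, and IGF2BP1 ranged from -0.30, without piPSC8, to 1.23. The causes were not tested. The number of member genes called higher was 4 with a pseudocount of 0.1 (LIN28B and ARID3B added) and 2 to 4 with single libraries left out, the 4 being without piPSC7 (LIN28B and DICER1 added). With the lines as a replicate block it was 2, with 4485 genes called in all instead of 4575, and in the paired fit DICER1 no longer passed (adjusted p = 0.0650), while no other member crossed the threshold. Of the genes in the pathway lists, TARBP2, TRIM25, PLAGL2, PBX3, YTHDC1 and TRIM3 passed without the block only. Genes called ranged from 4049 to 4639 with single libraries left out. The split of 2505 higher and 2070 lower genes became 1879 and 2511 under median ratio rescaling, 1986 and 2815 under the equal sum and 2149 and 2700 with voom. Depth limits TRIM71, the let-7 hairpins, LIN28B in PEFs and IGF2BP1 in line 7, where 0 to 7 fragments stand behind a value outside let-7d.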
